A study of Mus musculus with 20 samples.

Results

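The genes described here are 8 members of the machinery that coats and empties lipid droplets in mouse cortex: the droplet coat genes Plin2, Plin3 and Plin4, the lipase genes Pnpla2, Lipe and Mgll, and Abhd5 and G0s2, which encode an activator and an inhibitor of the Pnpla2 enzyme. They were chosen by gene symbol, all 8 were found among the 48795 genes of the count table, and all 8 were abundant enough to be tested, as were 17313 genes in all. The choice was made with results of these data in view. The study lists Plin4 among genes that differed after maternal inflammation and that rapamycin reversed, Plin4 upward. The values of Plin4 are therefore given in every comparison as a description with no p-value. Its calls in any fit are named only as part of counts over the 8 genes and are no test of Plin4. Counts over the 8 genes are set beside the share of all tested genes without being read as evidence about the group.

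Messenger RNA of sensory-motor cortex was sequenced in 20 offspring of CD-1 mice, an outbred stock with no altered allele, in 4 groups of 5 libraries. MIR (maternal inflammatory response) offspring were born to dams injected with 0.008 mg/kg of lipopolysaccharide on gestation day 9, and control offspring to dams injected with saline. In each kind of offspring, 5 libraries came from mice given rapamycin, an inhibitor of the mTOR kinase, 2 hours before euthanasia, and 5 from mice given vehicle at that time. All 4 groups thus share an injected dam and an injection before euthanasia, and the labels name the tissue only as brain. The study states that its drugs were given to young or old adults, with juveniles used only in a social test. The sources used here give neither the exact age at sequencing nor the litter of each library. The study's list of litters assigns several control and several MIR litters to sequencing with or without rapamycin, so libraries of a group may share a litter.

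Lipid droplets store triglycerides, and perilipins sit on their surface and govern access to the store. The fatty acids of a triglyceride are released in turn by adipose triglyceride lipase (ATGL, encoded by Pnpla2), hormone-sensitive lipase (HSL, encoded by Lipe) and monoacylglycerol lipase (encoded by Mgll). In brain, monoacylglycerol lipase is best known for degrading the endocannabinoid 2-arachidonoylglycerol, and lipid droplets are found mostly in glia and in cells that line the ventricles. In other tissues Pnpla2 is a known target of FoxO transcription factors, which insulin and AKT signaling keep out of the nucleus.

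The stretch of 250 bases before the start site that RefSeq annotates (build GRCm38.p6) is printed for Plin4, Pnpla2 and Mgll, the genes that were called higher under rapamycin in control offspring. Each is written 5′ to 3′ on the strand of the gene. Capitals mark a FoxO core (GTAAACA or ATAAACA), an E-box (CACGTG) or the glucocorticoid receptor hexamer AGAACA, each searched on both strands with no overlap among the matches found. The windows lie at chr17:56109783-56110032 on the minus strand for Plin4, chr7:141454938-141455187 on the plus strand for Pnpla2 and chr6:88724162-88724411 on the plus strand for Mgll.
Plin4: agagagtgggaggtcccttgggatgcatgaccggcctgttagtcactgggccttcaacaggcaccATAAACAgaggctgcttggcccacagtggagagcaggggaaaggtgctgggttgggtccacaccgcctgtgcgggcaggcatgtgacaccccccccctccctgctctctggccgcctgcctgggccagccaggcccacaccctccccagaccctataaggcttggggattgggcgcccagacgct
Pnpla2: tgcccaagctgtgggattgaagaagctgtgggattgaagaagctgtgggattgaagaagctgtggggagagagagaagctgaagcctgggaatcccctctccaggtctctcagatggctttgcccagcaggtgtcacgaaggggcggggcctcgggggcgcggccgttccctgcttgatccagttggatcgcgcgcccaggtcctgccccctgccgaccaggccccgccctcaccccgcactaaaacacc
Mgll: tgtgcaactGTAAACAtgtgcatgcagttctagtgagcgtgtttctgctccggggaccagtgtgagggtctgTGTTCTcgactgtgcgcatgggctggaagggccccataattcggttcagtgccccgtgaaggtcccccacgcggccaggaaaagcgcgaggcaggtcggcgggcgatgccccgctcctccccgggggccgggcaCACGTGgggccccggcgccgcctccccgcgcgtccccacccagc
The Plin4 window holds 1 FoxO core, which begins 185 bases before the start site. The Pnpla2 window holds none of the 3 motifs. This window of Mgll holds a FoxO core that begins 241 bases before the start, the hexamer as its reverse complement, and an E-box that begins 44 bases before it. Of the 8 genes, which have 10 such windows, 3 held a FoxO core, 2 an E-box and 1 the hexamer. Lipe was the other gene with an E-box and, in another window, a FoxO core. The other Mgll window, not printed, held none of these motifs. Among all 27025 genes with such windows, 8.06% held a FoxO core, 6.86% an E-box and 18.2% the hexamer. A match is a description of the letters only.

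In the mm10 annotation (GENCODE M21) Plin4 lies at chr17:56100591-56109803 on the minus strand, 1797 bases from Plin5 and 167672 from Plin3 (chr17:56277476-56292873), which encode other perilipins. Pnpla2 lies at chr7:141455198-141460743 and Lipe at chr7:25379527-25398710. Mgll lies at chr6:88724412-88828360, Abhd5 at chr9:122351608-122381524, Plin2 at chr4:86648386-86670060 and G0s2 at chr1:193272161-193273217. Exons of Abhd5 share 950 bases (16%) with an antisense gene, A730085K08Rik, and those of Lipe share 918 bases (15.6%) with 4732471J01Rik on the other strand, while Plin4 shares 17 bases with Hdgfl2. Mgll shares 167 bases with the antisense gene Gm26588, and Pnpla2, Plin2 and Plin3 overlapped no gene. G0s2 lies within Lamb3 but shares no exon base with it. Within the Plin4 transcript 17.4% of 50-base words occur more than once, so reads from its repeats have more than 1 place within the same gene.

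Depth was 17.8 to 24.5 M counts per library (M stands for mega). Each value below is given as CPM, counts per M of the library size after TMM scaling, which evens out differences in library composition. Some control vehicle libraries carried RNA of other brain regions. Control vehicle 1 had a summed 2638 CPM of 6 striatal markers against at most 255 CPM in any other library, and its 6 markers of cortical excitatory neurons summed to 94.6 CPM, while 18 libraries lay between 1714 and 2330 CPM. Control vehicle 2 had 2591 CPM of cerebellar markers and control vehicle 3 had 1256 CPM of choroid plexus markers. The main results of the 8 genes that use this group are therefore also given without these 3 libraries. Control vehicle 4 and 5 held smaller amounts, 15.5 and 19.3 CPM of choroid plexus markers and 62.1 and 49.0 CPM of cerebellar markers. These values too lay above every library of the other groups, which reached at most 15.2 and 45.9 CPM. Leaving out control vehicle 1, 2 and 3 does not remove this difference. Adipocyte markers (Adipoq, Plin1, Cidec, Lep, Cfd and Fabp4) summed to between 0 and 0.305 CPM, and Lep had no count in any library. In bulk tissue, fewer cells that express a gene and less RNA per cell cannot be told apart.

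Expressed per kilobase (kb) of exon, Mgll stood far above the other members in these cortices. Its mean level was 44.0 ± 8.41 CPM per kb (SD, n = 20), and it ranked highest in 20 of 20 libraries. Pnpla2 followed at 6.66 ± 2.21 CPM per kb and was above Plin4, at 4.02 ± 2.92, in 18 of 20 libraries. Plin4 lay above Plin3 (3.30 ± 1.41) in 10 of 20 libraries, and these were the rapamycin libraries, so this order followed treatment. Plin3 lay above G0s2 (3.28 ± 0.739) in 9 of 20, so Plin3 and G0s2 did not differ beyond their spread. Abhd5 (2.22 ± 0.352), Lipe (1.58 ± 0.304) and Plin2 (1.13 ± 0.261) were lowest, and each lay above the next in at least 18 libraries. Plin4 moved most in this order, from the 2nd to the 8th place among libraries.

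**Figure D1:**
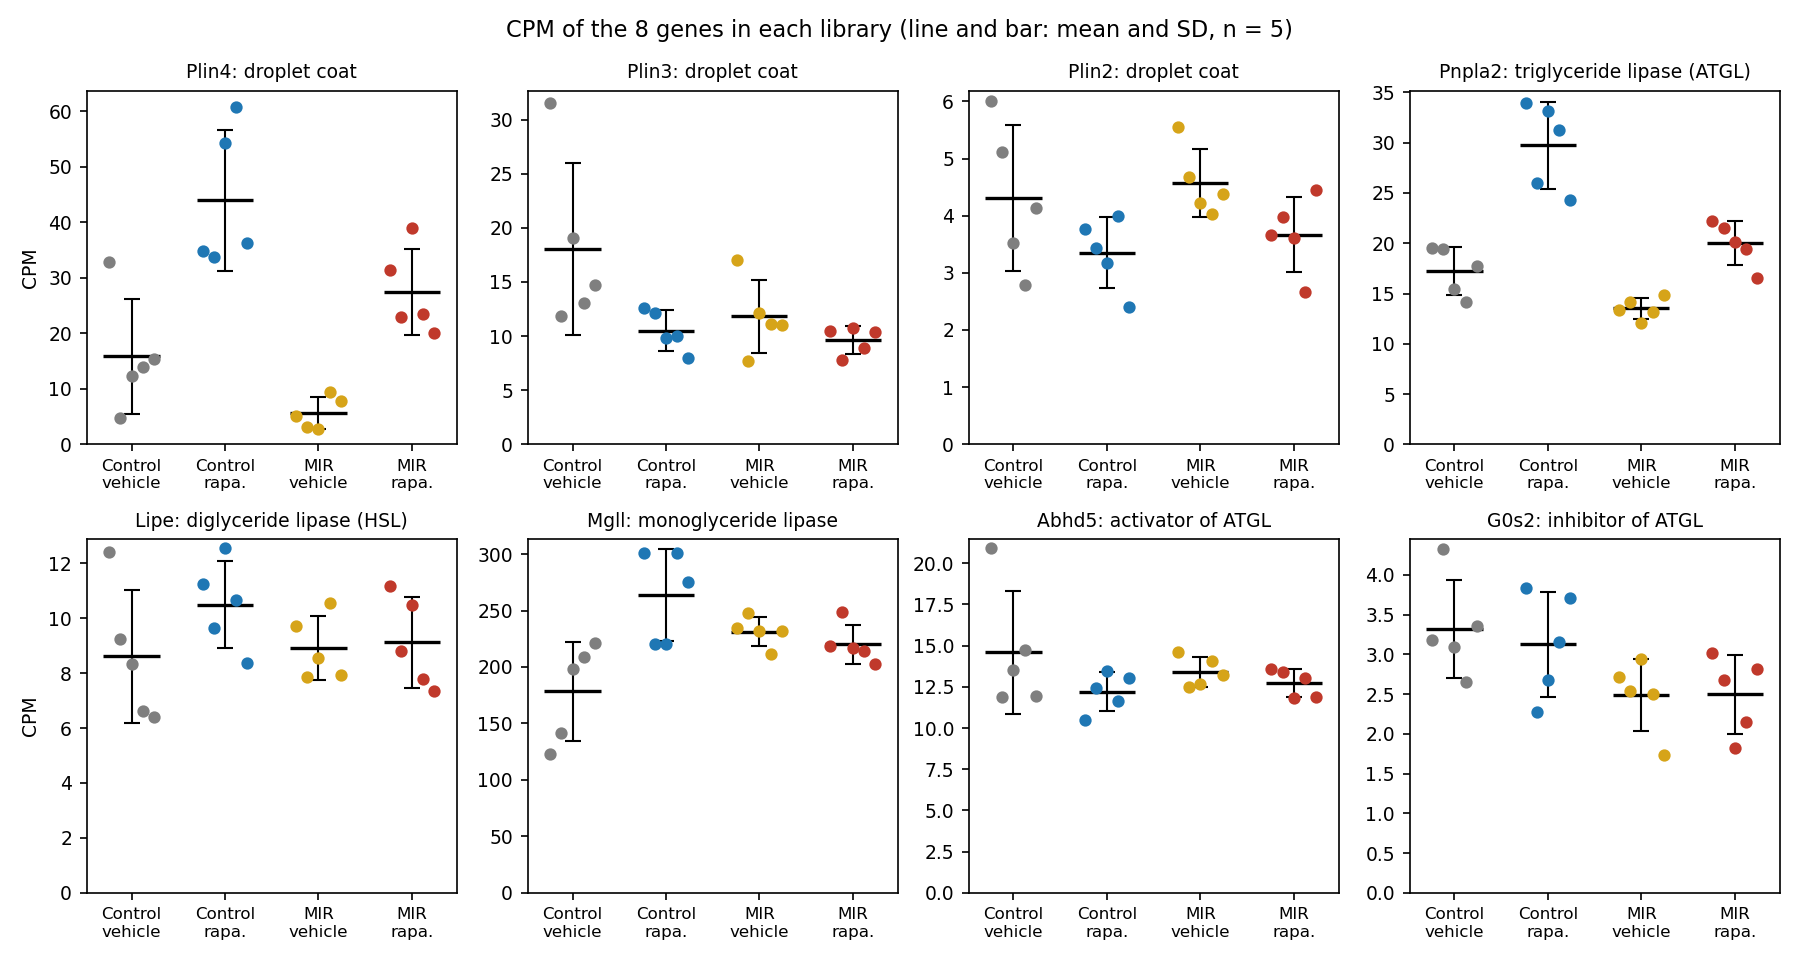
CPM (linear axis from 0) of each gene in each of the 20 libraries; dots are libraries in order of replicate number, horizontal lines are group means and bars are SD, n = 5 per group (rapa., rapamycin). Plin4 and Pnpla2 show no overlap between rapamycin and vehicle in either kind of offspring, and control vehicle 1, the leftmost gray dot, is highest in its group for Plin4, Plin3, Plin2, Pnpla2, Lipe and Abhd5 and lowest for Mgll.

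The first comparison was rapamycin against vehicle in control offspring, which had no maternal inflammation. The control vehicle libraries also differed in their RNA of other brain regions, as given above. In this comparison rapamycin and brain region therefore cannot be fully told apart. Plin4, Pnpla2 and Mgll were called higher and Plin3 lower, and the other 4 genes were not called. A call required an adjusted p under 0.05 and an absolute log2 fold change over 0.5 in edgeR's quasi-likelihood test. Thus 3 of 8 genes were called higher where 1.52% of all tested genes were, and 1 of 8 lower where 3.71% were. For 2 of 8, Plin4 and Pnpla2, the groups did not overlap, as for 6.53% of all genes. The median log2 fold change was 0.10 over the 8 genes and −0.035 over all genes. Pnpla2 alone of the 8 was called without control vehicle 1, 2 and 3. With only the control groups in the fit 0 of 8 were called, and edgeR's adjusted p was 0.0724 for Pnpla2. The shares of all genes called in these fits were not computed, so these counts are not read against a share.

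Plin4 encodes a perilipin that coats small, new lipid droplets and is best known from adipose tissue and muscle. In control offspring given vehicle it stood at 32.9, 4.76, 12.3, 14.0 and 15.4 CPM in libraries 1 to 5. After rapamycin the 5 libraries held 34.8, 33.7, 54.3, 60.9 and 36.2 CPM. Every rapamycin library was above every vehicle library, although control vehicle 1 came within 1 CPM of the lowest of them. The group means were 15.9 ± 10.4 and 44.0 ± 12.7 CPM, a log2 fold change of 1.47 ± 0.38 (SE), or 2.77-fold. The log2 fold change was 1.58 without control vehicle 1, 2 and 3, and 1.38 and 1.32 without control rapamycin 3 or 4, its highest libraries. It was 1.92 without control vehicle 1 and 1.23 without control vehicle 2, the highest and lowest vehicle libraries. Hdgfl2, which overlaps the 3′ end of Plin4, had a log2 fold change of 0.13 ± 0.10.

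In MIR offspring Plin4 started from a lower level. The vehicle libraries held 5.15, 3.12, 2.67, 9.47 and 7.80 CPM, and the rapamycin libraries 31.5, 23.0, 38.9, 23.5 and 20.1 CPM. The lowest rapamycin value was above the highest vehicle value. The means were 5.64 ± 2.95 and 27.4 ± 7.70 CPM, a log2 fold change of 2.28 ± 0.40, or 4.85-fold. This was the largest fold change among the 8 genes in that comparison. On the log2 scale it was 2.55 without MIR vehicle 4, the highest vehicle library, and 2.10 without MIR vehicle 3, the lowest. Averaged over both kinds of offspring it was 1.87 ± 0.28, and 1.93 without control vehicle 1, 2 and 3.

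Pnpla2 encodes ATGL, which takes the first fatty acid from a triglyceride. In control offspring the vehicle libraries held 19.5, 19.4, 15.4, 14.2 and 17.8 CPM, and the rapamycin libraries 34.0, 26, 33.2, 31.2 and 24.3 CPM. The groups did not overlap, and Pnpla2 rose from 17.3 ± 2.39 to 29.7 ± 4.36 CPM (n = 5 each). The log2 fold change was 0.78 ± 0.11, or 1.72-fold, with an edgeR adjusted p of 0.00185. It was 0.89 without control vehicle 1, 2 and 3, with an edgeR adjusted p of 0.0224. This call held in each fit that left out a single library.

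In MIR offspring Pnpla2 stood at 13.4, 14.1, 12.1, 13.2 and 14.8 CPM in the vehicle libraries and at 22.2, 21.6, 20.1, 19.4 and 16.6 CPM in the rapamycin libraries. Again no library of the rapamycin group fell among those of the vehicle group. The log2 fold change was 0.56 ± 0.12, or 1.48-fold, and the edgeR adjusted p of 0.104 missed the threshold. Without control vehicle 1, 2 and 3, which do not enter this contrast but do enter the shared estimate of the spread, the edgeR adjusted p was 0.0456 and Pnpla2 was called. Averaged over both kinds of offspring, Pnpla2 rose by a log2 fold change of 0.67 ± 0.081 with an edgeR adjusted p of 1.77e-04, and by 0.73 without the 3 libraries.

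Mgll encodes the lipase of the last step. In control offspring it stood at 123, 141, 198, 209 and 221 CPM under vehicle and at 301, 221, 220, 301 and 275 CPM under rapamycin. Its groups overlapped narrowly, since control vehicle 5 lay just above control rapamycin 2 and 3. Mgll rose from 178 ± 43.7 to 264 ± 40.7 CPM, a log2 fold change of 0.56 ± 0.14 with an edgeR adjusted p of 0.0228. The lowest Mgll values belonged to control vehicle 1 and 2, the libraries with markers of striatum and cerebellum. The log2 fold change was 0.29 without control vehicle 1, 2 and 3, with an edgeR adjusted p of 0.293. Leaving out control vehicle 1 or control vehicle 2 alone brought it to 0.45 and 0.49, under the fold minimum, and leaving out control rapamycin 4 gave 0.51 with an edgeR adjusted p of 0.0515. The part of other brain regions in this result was not tested.

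In MIR offspring Mgll was not called. It stood between 211 and 247 CPM under vehicle and between 202 and 248 CPM under rapamycin, with means of 231 ± 12.9 and 220 ± 17.1 CPM. The log2 fold change of −0.073 ± 0.14 had a 95% interval from −0.36 to 0.22. The difference between the rapamycin effects in MIR and in control offspring was −0.63 ± 0.19 on the log2 scale. Its unadjusted p in edgeR was 0.0038 and its adjusted p 0.318, so this difference failed the correction over all genes. With control vehicle 1, 2 and 3 left out it was −0.36.

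Plin3 encodes a perilipin that is made in most cells and moves from the cytosol to new droplets. In control offspring the vehicle libraries held 31.5, 11.9, 19.0, 13.1 and 14.7 CPM and the rapamycin libraries 12.6, 12.1, 9.85, 9.97 and 8.0 CPM. The group means were 18 ± 7.99 and 10.5 ± 1.87 CPM, and the value of control vehicle 1 was well above the others. Plin3 fell by 0.78 ± 0.23 on the log2 scale, with an edgeR adjusted p of 0.0455, just inside the threshold. This call was lost in 15 of the 20 fits that left out a single library, namely those without control vehicle 1 or 3, any of the 5 control rapamycin libraries, MIR vehicle 3, 4 or 5, or any of the 5 MIR rapamycin libraries. The adjusted p of edgeR lay between 0.0527 and 0.107 in these 15 fits. Plin3 had a log2 fold change of −0.48 without control vehicle 1, and of −0.41 without control vehicle 1, 2 and 3.

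Oligodendrocyte markers were highest in the library with most Plin3. The summed CPM of 5 of them (Mbp, Mog, Mag, Mobp and Cnp) was 7485 in control vehicle 1, against 1856 to 4435 in the other 19 libraries. The group ranges were 1856 to 7485 CPM for control vehicle, 2259 to 3189 for control rapamycin, 2115 to 4435 for MIR vehicle and 2150 to 2882 for MIR rapamycin. Of the 5 markers, 2 were called lower under rapamycin in control offspring, where 3.71% of all genes were, and none was at 0. MIR vehicle 1, with the highest Plin3 value of its group at 17.1 CPM, also had the highest sum of that group. Other libraries did not keep this order. MIR vehicle 4 had the next highest sum, 3721 CPM, with 11.1 CPM of Plin3, while MIR vehicle 3 had 12.2 CPM at a sum of 2417 CPM. Control vehicle 5 had a higher sum than control vehicle 3, 3748 against 3522 CPM, but less Plin3, 14.7 against 19.0 CPM. Abhd5 was likewise highest in control vehicle 1, at 21.0 CPM against 11.9 to 14.7 CPM in the other 4 libraries of its group. The part of oligodendrocyte RNA in these values was not tested. In MIR offspring Plin3 had a log2 fold change of −0.29 ± 0.23 and was not called.

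**Figure D2:**
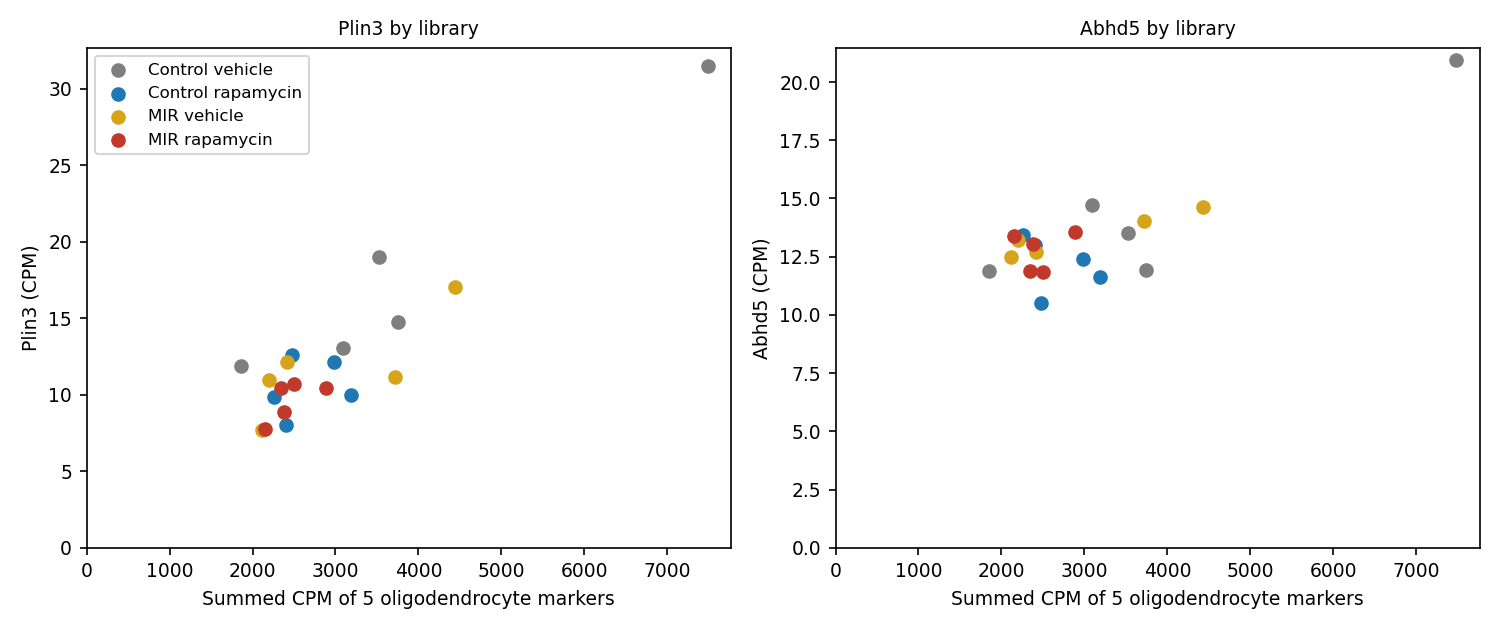
CPM of Plin3 (left) and Abhd5 (right) against the summed CPM of 5 oligodendrocyte markers, both axes linear and from 0; each dot is a library, colored by group. Control vehicle 1, at 7485 CPM of the markers, stands apart with 31.5 CPM of Plin3 and 21.0 CPM of Abhd5, while the other 19 libraries lie at 4435 CPM of the markers or less.

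The remaining 4 genes were not called in any comparison. Plin2, the coat protein of droplets in most cells outside fat, ranged from 2.4 to 6.01 CPM over the 20 libraries. Its log2 fold change under rapamycin was −0.36 ± 0.20 in control and −0.31 ± 0.20 in MIR offspring. Averaged over both it was −0.34 ± 0.14, with an edgeR adjusted p of 0.187 and a 95% interval from −0.63 to −0.048. Without control vehicle 1, 2 and 3 the log2 fold change of Plin2 was −0.055 in control offspring and −0.18 in the average. Lipe, the gene of HSL, which acts on diglycerides, ranged from 6.42 to 12.6 CPM. Its log2 fold change under rapamycin was 0.29 ± 0.17 in control and 0.030 ± 0.17 in MIR offspring. The value in control offspring was 0.68 without control vehicle 1, 2 and 3, with an edgeR adjusted p of 0.118.

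Neither gene that regulates ATGL was called. Abhd5, which encodes the activator also known as CGI-58, ranged from 10.5 to 21.0 CPM. Its log2 fold change under rapamycin was −0.26 ± 0.13 in control and −0.074 ± 0.13 in MIR offspring, and without control vehicle 1, 2 and 3 that in control offspring was −0.13. G0s2, the inhibitor, ranged from 1.73 to 4.32 CPM, with log2 fold changes of −0.087 ± 0.19 and 0.0070 ± 0.20. Its 95% intervals reached from −0.49 to 0.31 and from −0.40 to 0.42, so a change of the size of that of Pnpla2 in control offspring lay outside both. Without the 3 libraries the value of G0s2 in control offspring was 0.049.

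Ratios of counts within a library do not depend on how libraries are scaled. There were 16.3 to 22.2 G0s2 counts per 100 Pnpla2 counts in the control vehicle libraries and 8.08 to 15.3 in the control rapamycin libraries. In MIR offspring these ranges were 11.7 to 24.3 under vehicle and 9.07 to 17.0 under rapamycin, which overlapped. Abhd5 counts per 100 Pnpla2 counts were 61.1 to 107 and 30.9 to 53.6 in control offspring and 88.3 to 110 and 58.7 to 71.7 in MIR offspring, under vehicle and rapamycin. Per Pnpla2 count there were thus fewer Abhd5 counts in every rapamycin library than in every vehicle library of the same offspring. Pnpla2 is the denominator here and its own groups did not overlap, while Abhd5 was not called, so this is no separate result. These are counts of RNA and not of protein. Plin4 counts per Plin3 count were 0.401 to 1.07 in control vehicle and 0.220 to 0.850 in MIR vehicle libraries. After rapamycin they were 2.77 to 6.10 and 1.93 to 3.63, so all 10 rapamycin libraries held more Plin4 than Plin3 counts by at least 1.93 times. In control vehicle 1, whose Plin4 and Plin3 levels were both highest of their group, the ratio was 1.05 and in control vehicle 4 and 5 it was 1.07 and 1.05.

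**Figure D3:**
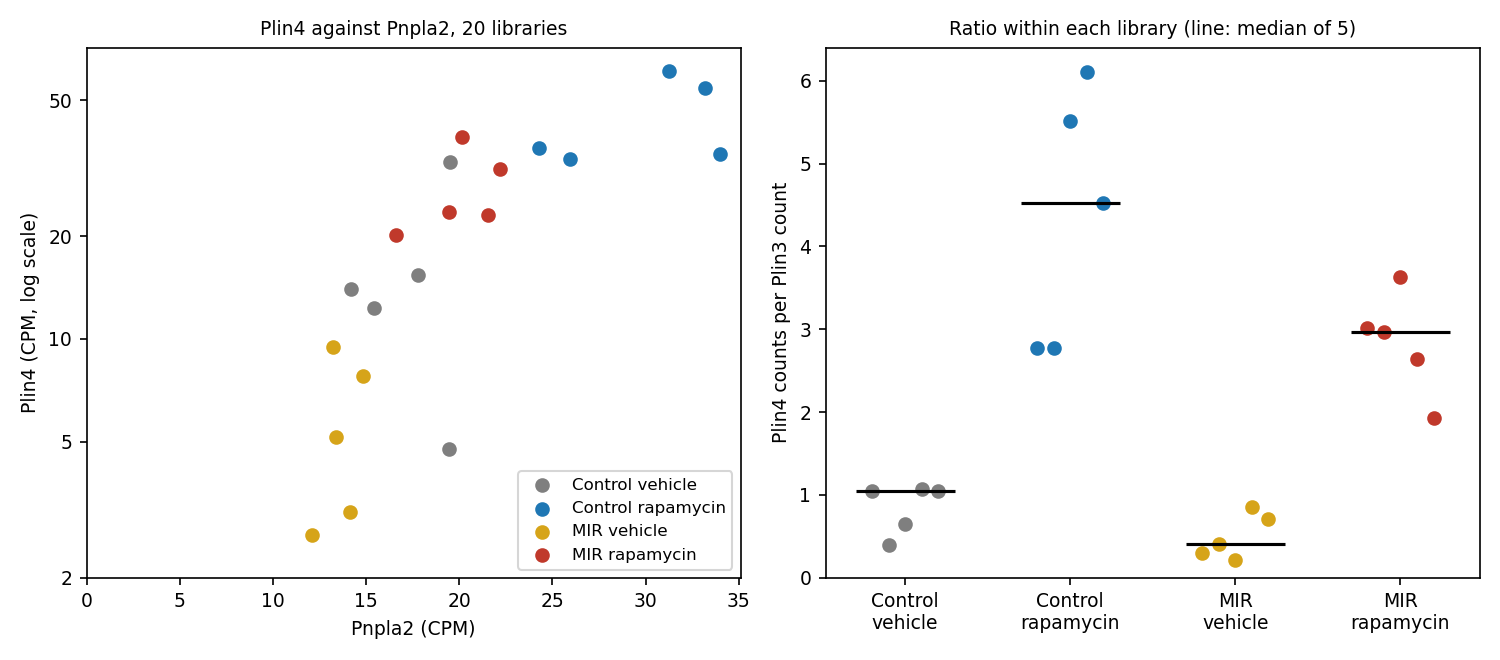
Left, Plin4 (CPM, log scale) against Pnpla2 (CPM, linear scale) in the 20 libraries, colored by group; right, Plin4 counts per Plin3 count in each library, with a line at the median of 5 libraries. The 10 rapamycin libraries lie at ratios of 1.93 to 6.10 and the 10 vehicle libraries at 0.220 to 1.07.

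The next comparison was rapamycin against vehicle in MIR offspring. None of the 8 genes was called, as against 0.0173% of all tested genes, and 2 had an unadjusted p under 0.05, as did 4.99% of all genes. DESeq2 called 2, Plin4 and Pnpla2, and 0.202% of all genes, and the call of Plin4 is no test of it. For these 2 of 8 genes the groups did not overlap, as for 2.78% of all genes. The median log2 fold change was −0.033 over the 8 genes and −0.0037 over all. The interaction, the difference between the rapamycin effects in the 2 kinds of offspring, was not called for any of the 8 (0% of all genes). At an unadjusted p under 0.05 it passed for 1 of 8 and for 12.7% of all genes, and DESeq2 called 0 of 8 and 0.0404% of all genes. For Plin4 the interaction was 0.81 ± 0.54 on the log2 scale, given as a description. For Pnpla2 it was −0.22 ± 0.16, with a 95% interval from −0.56 to 0.12. Without control vehicle 1, 2 and 3 these values were 0.71 for Plin4 and −0.33 for Pnpla2. In the average over both kinds of offspring, 2 of 8 genes were called higher, where 0.352% of all genes were, and 0 lower, where 1.06% were. Plin3 was not called there, with a log2 fold change of −0.54 ± 0.16 and an edgeR adjusted p of 0.0863. Leaving out control vehicle 2 brought it to −0.60 and into the calls, and without control vehicle 1, 2 and 3 it was −0.35. DESeq2 and edgeR's likelihood ratio test called Plin3 lower in this average, with adjusted p of 0.0353 and 0.0429, and DESeq2 called 2.55% of all genes there.

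**Figure D4:**
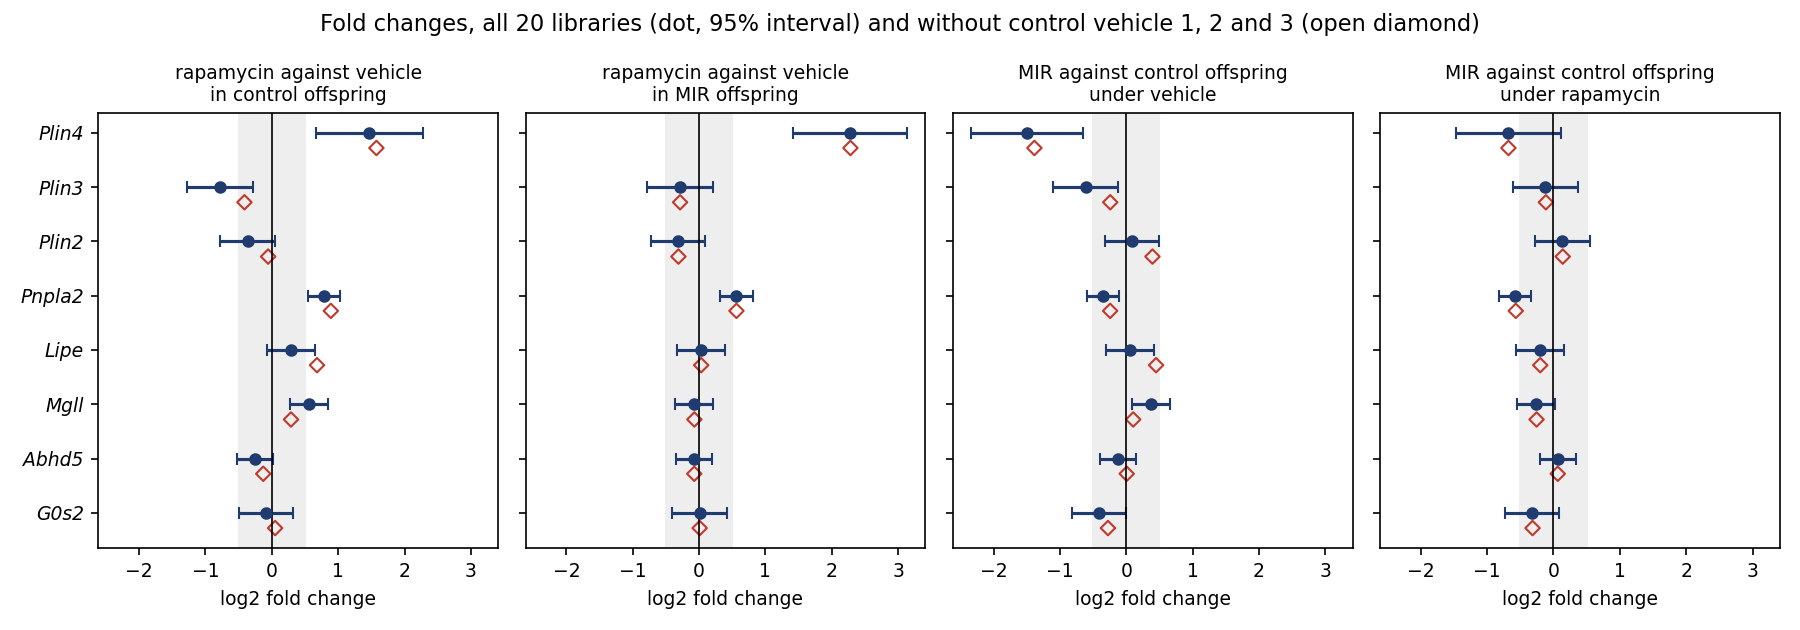
Log2 fold changes of the 8 genes in 4 comparisons, with dots and 95% intervals from the fit to all 20 libraries and open diamonds from the fit without control vehicle 1, 2 and 3; the gray band marks absolute values of 0.5 or less. The values and intervals of Plin4 are a description and no test. The diamonds of Plin4 and Pnpla2 stay near their dots under rapamycin, while in control offspring that of Mgll lies at 0.29 and that of Plin3 at −0.41, inside the band.

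MIR offspring given vehicle were next set against control offspring given vehicle, so that maternal inflammation and brain region cannot be fully told apart here either. None of the 8 was called by the quasi-likelihood test, where 0.0982% of all tested genes were, while 5 had an unadjusted p under 0.05, as did 16.3% of all genes. DESeq2 called 1, Plin4, and 2.26% of all genes. Plin4 had the vehicle levels given above, and 2 of 5 MIR libraries lay below all controls. Its log2 fold change was −1.49 ± 0.40, or 0.355-fold. The study's list through which Plin4 was chosen rests on this comparison as well as on the rapamycin effect, so these values are no test of Plin4. The log2 fold change of Plin4 was −1.38 without control vehicle 1, 2 and 3, which include its highest and its lowest control vehicle value. Leaving out single libraries moved it between −1.76, without MIR vehicle 4, and −1.04, without control vehicle 1. Pnpla2 had a log2 fold change of −0.35 ± 0.12, and 4 of 5 MIR libraries lay below all controls, with an edgeR adjusted p of 0.141. Without these 3 libraries Pnpla2 was at −0.24.

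None of the other genes passed the test between offspring under vehicle. Plin3 had a log2 fold change of −0.61 ± 0.23 with an edgeR adjusted p of 0.196, and of −0.24 without the 3 libraries. Mgll stood at 0.37 ± 0.14 with an edgeR adjusted p of 0.184, and at 0.10 without them. G0s2 had a log2 fold change of −0.42 ± 0.19, and its mean was 2.49 ± 0.457 CPM in MIR and 3.32 ± 0.617 CPM in control offspring. Without the 3 libraries that of G0s2 was −0.28. Plin2, Lipe and Abhd5 lay between −0.12 and 0.082, but without the 3 libraries at 0.39 for Plin2, 0.45 for Lipe and 0.0069 for Abhd5.

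Under rapamycin, Pnpla2 was the member that separated the offspring. All 5 MIR libraries, at 16.6 to 22.2 CPM, lay below all 5 control libraries, at 24.3 to 34.0 CPM. The log2 fold change was −0.57 ± 0.11, or 0.672-fold, and the edgeR adjusted p of 0.10 missed the threshold. Among the 8 genes 0 were called, where 0% of all genes were, and 1 had an unadjusted p under 0.05, as did 10.1% of all genes. DESeq2 called 1, Pnpla2, and 0.508% of all genes. The groups of 1 of 8 genes did not overlap, as for 4.12% of all genes. Without control vehicle 1, 2 and 3, none of which enters this contrast, the edgeR adjusted p was 0.0458 at a log2 fold change of −0.57. Without MIR vehicle 2 it was 0.0486. Plin4 stood at −0.68 ± 0.37, and 4 of 5 MIR libraries lay below all controls. Mgll stood at −0.26 ± 0.14, and the other 5 genes lay between −0.32 and 0.13.

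Averaged over vehicle and rapamycin, Pnpla2 had a log2 fold change of −0.46 ± 0.081 in MIR against control offspring, with an edgeR adjusted p of 0.00655. This lay just under the fold minimum, so no member was called in this average, where 0.606% of all genes were. With no fold minimum 1 of 8 genes passed, where 0.699% of all genes did, and 4 of 8 had an unadjusted p under 0.05, as did 13.2% of all genes. DESeq2 called 1, Plin4, and 1.29% of all genes, and this call is no test of Plin4. Plin4 averaged −1.09 ± 0.27, and was at −1.03 without control vehicle 1, 2 and 3. It was at −0.86 without control vehicle 1 alone and at −1.21 without control vehicle 2 alone. Without the 3 libraries Pnpla2 was at −0.41. Endothelial markers were also higher in MIR offspring, and microglial markers tended higher with sums that overlapped between offspring. The endothelial markers include Tek, which the study lists as raised in MIR offspring and lowered by rapamycin. The median log2 fold change in this average was 0.43 over 6 endothelial markers, of which 2 were called, and 0.30 over 6 microglial markers, of which 1 was called. None of these 12 markers was at 0 throughout. Summed endothelial markers ranged from 248 to 293 CPM in MIR vehicle and from 184 to 228 CPM in control vehicle libraries, and from 212 to 304 and 187 to 210 CPM under rapamycin. Summed microglial markers ranged from 319 to 564 and 257 to 452 CPM under vehicle and from 301 to 436 and 245 to 327 CPM under rapamycin. Their part in the values of Plin4 and Pnpla2 was not tested.

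Few other genes of the pathway were called. The lists described from here on were drawn up with earlier results of these data known, so their counts are descriptions only. Of 13 further genes of droplet coats and droplet formation, 10 were abundant enough to test and 0 were called in any of the 7 comparisons. Plin5, the perilipin gene next to Plin4, had at most 0.784 CPM in any library and log2 fold changes under rapamycin of 0.11 ± 0.49 in control and −0.36 ± 0.57 in MIR offspring. Hsd17b11, a droplet-bound dehydrogenase, had a log2 fold change of −0.25 ± 0.10 under rapamycin in control offspring. Cidea, which promotes droplet fusion, had one of −0.78 ± 0.34. Hilpda, an inhibitor of ATGL, had a log2 fold change of 0.46 ± 0.20 in MIR offspring and Aup1 of −0.083 ± 0.092. Of 16 genes of triglyceride synthesis 0 were called in any comparison. Gpat4 and Agpat3, acyltransferases of early steps, had log2 fold changes of 0.23 ± 0.066 and 0.20 ± 0.065 in control offspring. Dgat2, which makes triglyceride in the last step, stood at 0.27 ± 0.19 in MIR offspring and Lpin2, a phosphatidate phosphatase, at 0.10 ± 0.078.

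Among 12 other lipases and hydrolases, 11 were tested and 2 were called higher under rapamycin in control offspring, where 1.52% of all genes were. Dagla, which makes 2-arachidonoylglycerol, the substrate of monoacylglycerol lipase, had a log2 fold change of 0.61 ± 0.11 with an edgeR adjusted p of 0.00738. Dagla went from 113 ± 13.7 to 172 ± 36 CPM, and in MIR offspring it had a log2 fold change of −0.098 ± 0.11. Lipg, an endothelial lipase gene, had a log2 fold change of 1.11 ± 0.33 with an edgeR adjusted p of 0.0455. The call of Lipg was lost in 22 of 32 alternative fits and that of Dagla in 4. Neither was called without control vehicle 1, 2 and 3, at log2 fold changes of 0.47 for Dagla and 0.46 for Lipg. The median of the list was 0.16, against −0.035 over all genes. In MIR offspring 0 of the 11 were called, and those with the smallest p were Lpl, at −0.76 ± 0.47, and Lipa, at −0.15 ± 0.14.

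Of 19 genes of fatty acid oxidation and PPAR targets, all tested, 0 were called in any of the 7 comparisons. Under rapamycin the median log2 fold change of the list was 0.12 in control and 0.023 in MIR offspring. Acadm, a dehydrogenase of medium-chain fatty acids, had a log2 fold change of −0.27 ± 0.077 in control offspring with an edgeR adjusted p of 0.0369, under the fold minimum. Ppara, which encodes a fatty acid sensing transcription factor, had a log2 fold change of 0.56 ± 0.22 there, with an edgeR adjusted p of 0.105. Angptl4, a PPAR target, stood at 0.77 ± 0.37 in MIR offspring and was not called.

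The list with most calls was that of glucocorticoid and FoxO targets, which holds genes raised by corticosteroids in many tissues. It was drawn up with earlier results of these data known. Hif3a and Cdkn1a, which it holds, stand with Plin4 in the study's list of genes that rapamycin reversed. Its counts and medians are therefore a description and no test of the list. Of 17 genes, all tested, 5 were called higher under rapamycin in control offspring and 0 lower, where 1.52% and 3.71% of all genes were, and the median log2 fold change was 0.42 against −0.035 over all genes. They were Map3k6 at 1.85 ± 0.24, Fkbp5 at 1.49 ± 0.25, Mt2 at 0.79 ± 0.13, Klf9 at 0.53 ± 0.092 and Cdkn1a at 1.72 ± 0.31. Fkbp5 encodes a cochaperone of the glucocorticoid receptor, Mt2 a metallothionein and Cdkn1a the cell cycle inhibitor p21. Without control vehicle 1, 2 and 3, 2 of the 17 were called, Map3k6 and Fkbp5, in a fit whose share of all genes called was not computed. In MIR offspring 1 of 17 was called, where 0.0173% of all genes were, Hif3a, at 1.19 ± 0.18, and the median was 0.12. Hif3a encodes a hypoxia-inducible factor subunit. Without the 3 libraries, Fkbp5 (1.29) and Mt2 (0.69) were called there as well. In the average over both kinds of offspring 5 were called higher, where 0.352% of all genes were, namely Map3k6, Fkbp5, Mt2, Hif3a and Cdkn1a. Without the 3 libraries 4 were, since Cdkn1a had an edgeR adjusted p of 0.104 at a log2 fold change of 0.84. The call of Cdkn1a in this average was lost in 5 of 31 alternative fits. In MIR offspring Cdkn1a stood at 0.13 and was not called, against 1.72 in control offspring. Under vehicle Hif3a was called lower in MIR offspring, at −0.96, and that call was lost in 19 of 32 alternative fits, among them that without the 3 libraries, at a log2 fold change of −0.99. The call of Hif3a in MIR offspring was lost in 6.

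**Figure D5:**
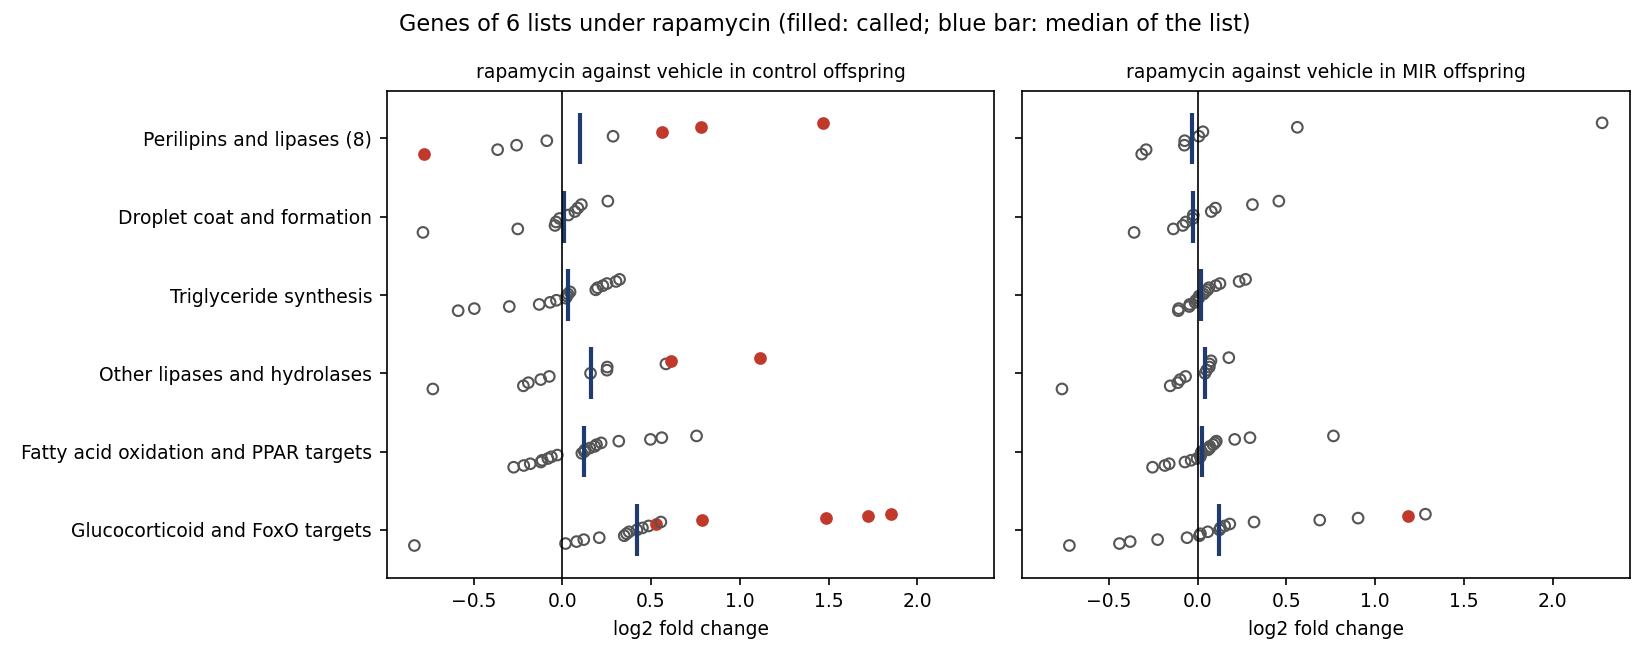
Log2 fold changes under rapamycin in control offspring (left) and MIR offspring (right) for the 8 genes and the tested genes of 5 related lists; each circle is a gene, filled where it was called, and the blue bar is the median of its list. The median of the glucocorticoid and FoxO targets lies at 0.42 on the left and 0.12 on the right, and the other medians on both sides lie between −0.033 and 0.16.

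Likeness to Plin4 across libraries was measured as Pearson's r of log2 CPM over the 20 libraries and 13252 genes whose mean was 1 CPM or more, and is a description without p. Over libraries as they stand, the 6 of these genes most like Plin4 were Sult1a1 (r = 0.88, Spearman's rho 0.90), Fkbp5 (0.87, 0.88), Syn3 (0.87, 0.80), Hif3a (0.87, 0.90), Tekt4 (0.85, 0.89) and Cmtm3 (0.85, 0.86). Dock6, Serpinh1 and Igdcc4 were most unlike it, with r of −0.84, −0.84 and −0.82. These values share the 4 groups, in which Plin4 itself differed. With the mean of each group taken away, the 6 most like it were Dnajc27 (0.88), Rhbdl3 (0.87), Emilin2 (0.83), Pld1 (0.83), Prdx3 (0.83) and D16Ertd472e (0.83), and Srrm3 (−0.87), Ephb2 (−0.85) and Erc1 (−0.84) were most unlike it. Without control vehicle 1, 2 and 3 the latter 9 lay between 0.69 and 0.80 or between −0.80 and −0.66. Among the 8 genes themselves, with group means taken away, r over the 28 pairs lay between −0.59 (Lipe with Mgll) and 0.61 (Pnpla2 with Lipe). Without the 3 libraries these were −0.13 and 0.55. Plin4 and Pnpla2, the 2 genes whose groups did not overlap under rapamycin, had an r of 0.82 over libraries as they stand and of 0.22 with group means taken away.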

How the data were processed

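The authors sequenced poly(A)-selected RNA prepared with a stranded kit, placed 50-base paired reads on mm10 with STAR 2.4.0 and counted them per gene with HTSeq 0.6.1, per the labels and methods. The deposited table holds these raw counts, with no normalization. No source used here says whether strand was used in counting, and counts of Abhd5, Lipe and Mgll may hold reads of antisense genes. The methods state that outliers at quality control were removed, and the labels speak of 12 MIR and 12 control mice, of which 20 libraries were analysed here.

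The analysis used edgeR 4.0.16 in R 4.3.3, with genes kept by filterByExpr (minimum count 10, minimum total 15) and TMM scaling. One quasi-likelihood model with a mean per group was fitted to all 20 libraries, with Benjamini-Hochberg adjustment over 17313 genes. The common biological coefficient of variation was 21.9%. SE is the log2 fold change divided by the square root of the F statistic. For log2 CPM the prior count was 2. The fit was tested on simulated data. All pairs of libraries within a group differed by more than counting noise, with a chi-square of at least 5.37 times its degrees of freedom.

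The members, the lists and the rule for named genes were chosen with earlier results of these data known. The text names the 8 genes, up to 4 called genes per list and direction or up to 2 with the smallest p, and the genes most like and unlike Plin4. A few genes of the lists and of the search for likeness are not reported here and were left out of these summaries, after the values had been seen. Cdkn1a, in 5th place among the called genes of its list, and Plin5 were named after their values were seen. Gpat3 stands in the table under the older symbol Agpat9. Promoters come from RefSeq, which had windows for 8 of 8 genes. The litter of each library is not given, and p-values measure the spread between these libraries, some of which may share a litter. Alternatives were DESeq2 1.42.0, edgeR's likelihood ratio test, limma 3.58.1 voom, other scaling, filters and thresholds, fits with only the groups compared or with the replicate number as a block, and fits without control vehicle 1, 2 and 3 or without each library. A fit that also left out control rapamycin 1 was added after seeing the data.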

Additional observations from a re-analysis of the deposited data

How the results depend on the processing

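In each comparison where a member was called, its log2 fold change kept its sign in every alternative run. Of 1768 log2 fold changes of the 8 genes under alternatives, 32 lost a call, 31 gained one and 14 that were never called moved by more than the spread between replicates. With DESeq2 and with edgeR's likelihood ratio test, 1 member was called in MIR against control offspring under vehicle (Plin4), 1 under rapamycin (Pnpla2), 2 for rapamycin in MIR offspring (Plin4 and Pnpla2) and 1 in the MIR average (Plin4), where the quasi-likelihood test called 0. Both tools called 3 in the rapamycin average (Plin4, Pnpla2 and Plin3), against 2. Calls of Plin4 in any fit are no test of it. Shares of all genes called were computed only for the main fit and for DESeq2, so counts in the other fits are not read against a share. With only the groups compared in the fit, and so fewer libraries behind the spread, 0 were called for rapamycin in control and 2 in MIR offspring. With no filter on low counts 1 was called for rapamycin in MIR offspring (Plin4), and with no minimum fold change 1 in the MIR average (Pnpla2). Without control vehicle 1, 2 and 3, and also with control rapamycin 1 left out, 1 was called for rapamycin in control offspring (Pnpla2), 2 for rapamycin in MIR offspring, 1 in MIR against control offspring under rapamycin (Pnpla2) and 1 in the MIR average (Plin4). Leaving out each library in turn gave 1 to 4 members for rapamycin in control offspring, 0 to 1 for rapamycin in MIR offspring, 2 to 3 for the rapamycin average, 0 to 1 for MIR under rapamycin, 0 to 1 for the MIR average and 0 for MIR under vehicle and for the interaction. With the replicate block, 1 member was called for rapamycin in MIR offspring (Plin4). The numbers did not pair the libraries, since 4 of 30 same-numbered pairs correlated by more than 0.1 and 4 of 20 libraries were closest to their own number. Low counts limit G0s2, with 36 to 99 counts per library.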
